A study of Arabidopsis thaliana with 16 samples.

Results

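Small heat shock proteins are chaperones with an alpha-crystallin domain, and 8 probe sets of an Arabidopsis thaliana array that stand for 1 such gene each are described here. They were chosen as the probe sets that the array annotation assigns to AT1G53540, AT2G29500, AT1G54050, AT4G21870, AT5G51440, AT1G52560, ATHSP22.0 (AT4G10250) or AT5G37670 and to no other gene. These 8 were found among 22746 tested probe sets, of which 13513 had 1 assigned gene. Every member had 1 probe set, and none was left out by a filter.

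The arrays measured RNA of the first fully expanded leaf of wild-type plants of the ecotype Col-0, the Columbia line, with no transgene or mutation named in the labels. There were 4 states with 4 arrays each: a baseline at the growth temperature of 22 °C, the temperature optimum of photosynthesis, and 2 hotter states at which photosynthesis had dropped 20% and 30% below that optimum. All plants had grown under a 10 h photoperiod, 350 µmol m-2 s-1 of light and 60% relative humidity, and leaves were heated in steps of 2 °C every 10 min. The labels put the end of the temperature curve at 42 °C and its length at 3 to 4 h, and name a wait of 20 to 30 min. Neither plant age nor the leaf temperature of the 3 warmer states is given in the labels. Hotter states also lay later in the temperature curve, so temperature and elapsed time cannot be told apart.

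Plants carry an unusually large family of small heat shock proteins, with separate classes in the cytosol and nucleus, mitochondria, chloroplasts, endoplasmic reticulum and peroxisomes. They bind unfolding proteins without using ATP and keep them in a state from which HSP100 and HSP70 chaperones can refold them. In leaves most of them are scarce at ordinary temperatures and are transcribed under the control of heat shock factors when the leaf warms. AT1G53540 and AT2G29500 encode class I proteins of the cytosol and AT1G54050 a class III protein of the cytosol and nucleus. AT5G51440 encodes a mitochondrial protein, ATHSP22.0 a protein of the endoplasmic reticulum lumen and AT5G37670 a peroxisomal protein. AT1G52560 encodes an organelle-type protein whose compartment is not settled here, and AT4G21870 is given no compartment. These assignments are background knowledge and were not measured.

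Signals are RMA values on a log2 scale, so that 1 unit is a 2-fold difference, and the arrays spanned 3.25 to 14.7. A baseline near the lower end or a level near the upper end makes a fold change an approximate value, and signals of different probe sets are not comparable as amounts of transcript. The leaf label was checked with 3 measured mesophyll markers, which averaged between 12.6 and 14.6 in every state, while the 2 measured root markers averaged between 4.53 and 4.84. All 3 mesophyll markers, the Rubisco activase RCA and the Calvin cycle enzymes SBPASE and PRK, were called lower at 20% and at 30% inhibition than at baseline (median changes of −0.84 and −0.79), and 2 of them at the optimum (median of the 3 −0.28). The control probe set for 25S rRNA, which has no poly(A) tail, ran from 5.55 to 6.41 at baseline, 5.52 to 6.31 at the optimum, 5.25 to 12.99 at 20% inhibition and 8.67 to 11.4 at 30% inhibition. Within 20% inhibition, replicate 3 had the value 5.25 and the other 3 arrays 10.4 to 12.99. The 3′ minus 5′ difference of the actin control ran from 1.94 to 2.19 at baseline, 2.08 to 2.28 at the optimum, 2.17 to 2.44 at 20% inhibition and 2.28 to 2.59 at 30% inhibition, where no array overlapped with the baseline. For GAPDH the medians were 0.91, 0.92, 0.81 and 0.72 in the same order, and for ubiquitin the difference spanned 1.17 to 1.34 over all 16 arrays. The part of these measures in the changes of the members was not tested. Each change was also fitted with the 25S signal as a covariate, and AT4G21870 was the only member for which a call or a direction differed in that fit. Apart from 20% inhibition replicate 3, the 25S signal was higher in every inhibited array than at baseline and optimum. That fit therefore cannot separate the 25S signal from the state.

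At the optimum, before photosynthesis had declined, 4 of the 8 genes had risen against the baseline: the mitochondrial AT5G51440, the cytosolic AT2G29500 and AT1G54050, and the peroxisomal AT5G37670. The endoplasmic reticulum gene ATHSP22.0, the organelle-type AT1G52560, the class I gene AT1G53540 and AT4G21870 were not called. Over all probe sets 8.14% were called higher in that comparison. The arrays of the same 4 genes did not overlap between optimum and baseline, as was so for 21.8% of all probe sets. By 20% inhibition 7 of the 8 were called higher than at baseline, where 18.9% of all probe sets were, and AT4G21870 was the member not called. The same 7 were called higher at 30% inhibition than at baseline and at 20% inhibition than at the optimum, where 19.3% and 18.8% of all probe sets were. Calls are at an adjusted p under 0.05 from limma, fitted over all 16 arrays, with all 22746 probe sets entering the Benjamini-Hochberg adjustment; the verbs "rose" and "fell" stand for called changes. In whole leaves a change in RNA per cell and a change in the cells that express a gene cannot be told apart, and the part of the lower mesophyll markers was not tested.

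**Figure D1:**
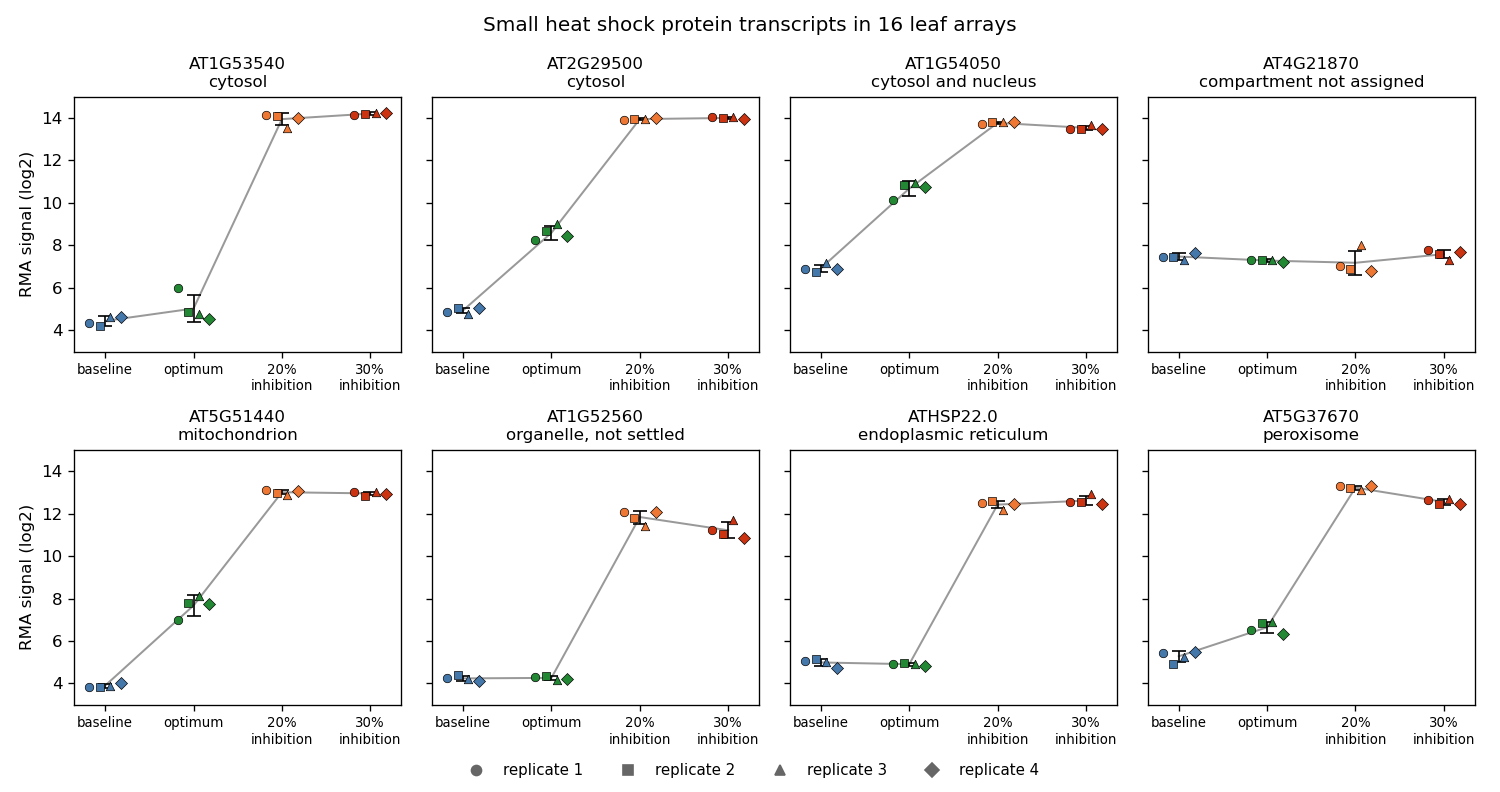
RMA signal (log2) of the 8 small heat shock protein genes in each of the 16 arrays, by state from baseline to 30% inhibition. Symbols are the replicates, grey lines join the state means and black bars show 1 SD. Optimum arrays of AT5G51440, AT2G29500 and AT1G54050 lie between their baseline and their inhibited arrays, those of ATHSP22.0 and AT1G52560 lie at their baseline level, and AT4G21870 stays between 6.81 and 8.02.

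AT2G29500 (probe set 266294_at), a class I protein of the cytosol, read 4.87, 5.03, 4.78 and 5.06 in the baseline arrays. It read 8.26, 8.69, 8.99 and 8.42 at the optimum, 13.90, 13.94, 13.94 and 13.98 at 20% inhibition, and 14.02, 14.02, 14.02 and 13.93 at 30% inhibition. No array of the optimum overlapped with the baseline or with either inhibited state, and the inhibited states overlapped with each other. The rise at the optimum was 3.65 ± 0.11 (log2 change ± SE, 12.6-fold, limma adjusted p = 1.05e-12), the 11th highest change of all probe sets. From the optimum to 20% inhibition it rose by a further 5.35 ± 0.11 (adjusted p = 1.68e-15). At 20% inhibition it stood 9.01 above the baseline, so 40.6% of that log2 rise was already reached at the optimum.

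AT1G54050 (263150_at), the class III gene, read 6.87, 6.76, 7.16 and 6.90 in the baseline arrays. It then read 10.15, 10.83, 10.96 and 10.76 at the optimum, 13.69, 13.79, 13.79 and 13.79 at 20% inhibition, and 13.49, 13.48, 13.67 and 13.47 at 30% inhibition. All 4 states were separate, with the 30% arrays just under the 20% arrays. The rise at the optimum was 3.75 ± 0.13 (13.5-fold, limma adjusted p = 3.75e-12) and the next step 3.09 ± 0.13 (8.53-fold, adjusted p = 1.07e-11). It was the member with the largest part of its rise at the optimum, 54.8% of the log2 distance to 20% inhibition. At 20% inhibition it stood 6.84 ± 0.13 above the baseline (115-fold).

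AT1G53540 (260978_at), the other class I gene of the cytosol, read 4.33, 4.18, 4.62 and 4.64 at baseline and 5.97, 4.85, 4.76 and 4.52 at the optimum. It then read 14.11, 14.10, 13.54 and 14.01 at 20% inhibition and 14.12, 14.20, 14.25 and 14.24 at 30% inhibition. At the optimum replicate 1 stood apart, and replicate 4 lay within the baseline range. The change at the optimum was 0.58 ± 0.23 and was not called (limma adjusted p = 0.0947). It was 0.27 without optimum replicate 1 (adjusted p = 0.22), and it was called without optimum replicate 4 (0.75, adjusted p = 0.0421) and with array weights (0.57, adjusted p = 0.0382). Only 6.14% of its log2 rise to 20% inhibition was present at the optimum. The step from the optimum to 20% inhibition, 8.91 ± 0.23 (482-fold, adjusted p = 1.82e-14), was the highest of all 22746 probe sets.

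AT5G51440 (248434_at), the mitochondrial gene, started near the lower end of the array range with 3.85, 3.84, 3.88 and 4.04 at baseline. It read 6.99, 7.81, 8.13 and 7.76 at the optimum, 13.10, 12.97, 12.88 and 13.06 at 20% inhibition, and 13.01, 12.84, 13.03 and 12.91 at 30% inhibition. The optimum arrays were separate from all others and were the most spread, with an SD of 0.49 against 0.09 at baseline. The rise at the optimum was 3.77 ± 0.16 (limma adjusted p = 6.04e-11) and the next step was 5.33 ± 0.16 (40.3-fold, adjusted p = 1.41e-13). Of its log2 rise to 20% inhibition, 41.4% was reached at the optimum.

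AT1G52560 (262148_at), the organelle-type gene, read 4.28, 4.38, 4.19 and 4.11 at baseline and 4.31, 4.38, 4.16 and 4.22 at the optimum. It read 12.05, 11.79, 11.42 and 12.08 at 20% inhibition and 11.25, 11.04, 11.71 and 10.85 at 30% inhibition. Baseline and optimum arrays were intermixed, and all inhibited arrays lay far above them. The change at the optimum was 0.02, with a 95% interval of −0.31 to 0.36, and the next step was a rise of 7.57 ± 0.16 (190-fold, limma adjusted p = 1.58e-15). Against the baseline it was higher by 7.59 ± 0.16 at 20% inhibition (193-fold, adjusted p = 4.24e-16).

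ATHSP22.0 (AT4G10250, 255811_at), the endoplasmic reticulum gene, read 5.04, 5.16, 5.02 and 4.74 at baseline and 4.93, 4.98, 4.90 and 4.83 at the optimum. It read 12.48, 12.59, 12.17 and 12.44 at 20% inhibition and 12.55, 12.52, 12.92 and 12.45 at 30% inhibition. The optimum arrays lay inside the baseline range and the inhibited states overlapped with each other. The change at the optimum had a 95% interval of −0.31 to 0.15, and the step to 20% inhibition was a rise of 7.51 ± 0.11 (182-fold, limma adjusted p = 1.12e-17).

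AT5G37670 (249575_at), the peroxisomal gene, read 5.44, 4.92, 5.26 and 5.50 at baseline and 6.52, 6.83, 6.90 and 6.34 at the optimum. It read 13.29, 13.20, 13.09 and 13.29 at 20% inhibition and 12.62, 12.44, 12.69 and 12.44 at 30% inhibition. No 2 states overlapped. Its rise at the optimum was 1.37 ± 0.13 (2.58-fold, limma adjusted p = 1.70e-06), 17.2% of its log2 rise to 20% inhibition. The step from the optimum to 20% inhibition was 6.57 ± 0.13 (95.2-fold, adjusted p = 6.73e-16).

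**Figure D2:**
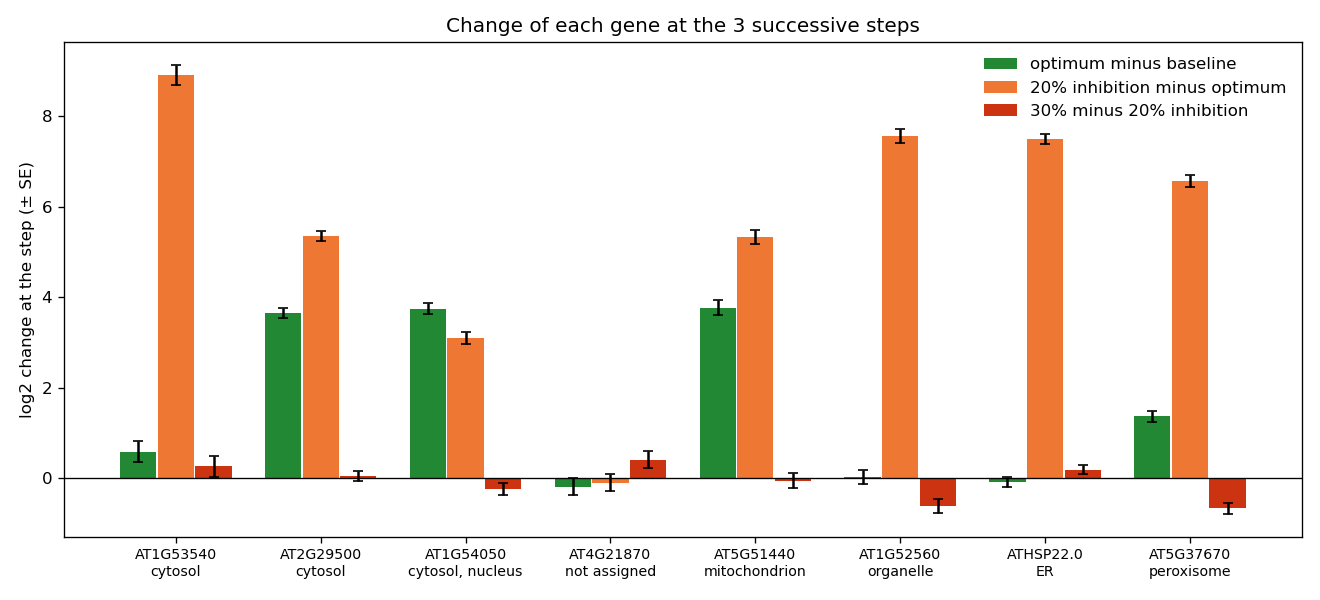
Log2 change of each small heat shock protein gene at the 3 successive steps, with bars showing the limma estimate and its standard error. At the step from the optimum to 20% inhibition 7 genes rose, by 3.09 to 8.91, and at the step from baseline to optimum AT2G29500, AT1G54050 and AT5G51440 rose by 3.65 to 3.77. Neighbouring steps have 4 arrays in common.

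The genes of the cytosol did not all share 1 timing. The mitochondrion, the endoplasmic reticulum and the peroxisome have 1 member each, so likeness within them could not be examined. The cytosolic AT2G29500 and the mitochondrial AT5G51440 had similar changes at both early steps, which share the optimum arrays. The class I genes AT2G29500 and AT1G53540 of the same compartment differed at both steps. To test this, the difference between 2 members in their log2 change was computed for all 28 pairs at each of the 3 successive steps and tested by a 2-sided exact permutation test over the arrays. With 4 arrays against 4 the smallest p is 0.0286, which became 0.0436 after Benjamini-Hochberg adjustment over the 84 differences. That adjusted value depends on how many differences reached the smallest p, which were 19, 26 and 10 at the 3 steps. Calls at the last step thus rest in part on those of the earlier steps, and an adjustment within each step was not made. Each difference called here reached that smallest p, which means that the per-array differences of the 2 states did not overlap. Leaving out 1 array cannot make such states overlap: where a call ended without 1 array, the per-array differences were still separate, and the 2-sided test of 3 arrays against 4 also counted arrangements of the opposite sign. The 84 differences share arrays and members and are not independent.

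From baseline to optimum 19 of 28 pairs differed. The change of AT1G53540 minus that of AT2G29500 was −3.07 ± 0.46 (SE, exact adjusted p = 0.0436), and it was −2.96 without baseline replicate 3, where the call ended with the states still separate (exact adjusted p = 0.081). AT2G29500 rose by 2.28 ± 0.18 more than the peroxisomal AT5G37670 (exact adjusted p = 0.0436). The mitochondrial AT5G51440 exceeded the organelle-type AT1G52560 by 3.75 ± 0.29 and the endoplasmic reticulum gene ATHSP22.0 by 3.85 ± 0.28 (exact adjusted p = 0.0436 for both). AT2G29500, AT1G54050 and AT5G51440 did not differ detectably from each other: the 3 differences were −0.10 ± 0.17, −0.12 ± 0.14 and −0.02 ± 0.12 (exact adjusted p = 0.64, 0.51 and 0.87). Nor did AT1G52560 and ATHSP22.0, with a difference of 0.10 ± 0.05 (exact adjusted p = 0.080). AT1G53540 could not be separated from AT1G52560, ATHSP22.0 or AT5G37670, with exact adjusted p of 0.21, 0.15 and 0.18. Without optimum replicate 1 it rose less than AT5G37670 (−1.14, exact adjusted p = 0.0436).

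From the optimum to 20% inhibition 26 of 28 pairs differed, each at an exact adjusted p = 0.0436. Every pair with AT4G21870, itself not called at this step, was among the 26. Pairs of other probe sets were not examined, so the pair counts of the steps have no general share beside them. AT1G53540 rose by 3.56 ± 0.46 more than AT2G29500 and by 1.40 ± 0.32 more than ATHSP22.0. The second of these calls ended without any 1 of the 4 arrays of 20% inhibition (1.37 to 1.45, exact adjusted p = 0.074 to 0.086), again with the states separate, and the first held in all 8 fits without 1 array. AT1G53540 and AT2G29500 both averaged 13.94 at 20% inhibition, near the upper end of the arrays. Their difference at this step shares the optimum arrays with that at the first step and is not a separate result. AT1G54050 had the smallest rise among the 7 called genes, by 2.26 ± 0.10 less than AT2G29500, though its signal of 13.8 at 20% inhibition was near the upper end of the arrays. The other two pairs were AT2G29500 with AT5G51440, which differed by 0.02 ± 0.14 (exact adjusted p = 0.91), and AT1G52560 with ATHSP22.0, which differed by 0.06 ± 0.11 (exact adjusted p = 0.64). These same 2 pairs were also not separated at the first step.

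From 20% to 30% inhibition 2 members fell and none rose, where 2.97% of all probe sets were called lower and 4.19% higher. Peroxisomal AT5G37670 fell by 0.67 ± 0.13 on the log2 scale (1.59-fold, limma adjusted p = 0.0037), with its arrays at 12.44 to 12.69 at 30% inhibition, against 13.09 to 13.29 at 20% inhibition. AT1G52560 fell by 0.62 ± 0.16 (adjusted p = 0.024), with its arrays overlapping at 10.85 to 11.71 at 30% inhibition, against 11.42 to 12.08 at 20% inhibition. The call of AT1G52560 ended without 20% inhibition replicate 1 (−0.55, adjusted p = 0.077) or replicate 4 (−0.54, 0.073), without 30% inhibition replicate 2 (−0.57, 0.074) or replicate 4 (−0.50, 0.079), and in a fit on the 8 arrays of these states (0.11). AT5G37670 was called in each of the 16 fits that left out 1 array.

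Among the members not called at that last step, AT1G54050 changed by −0.24 ± 0.13 and AT1G53540 by 0.26 ± 0.23, and the arrays of neither overlapped between the states, as was so for 11.2% of all probe sets. AT2G29500 changed by 0.05 ± 0.11, ATHSP22.0 by 0.19 ± 0.11 and AT5G51440 by −0.06 ± 0.16. Of 28 pairs 10 differed at this step, under the adjustment shared with the earlier steps. AT5G37670 differed from ATHSP22.0, from AT5G51440 and from all 3 genes of the cytosol, for example by 0.86 ± 0.09 from ATHSP22.0 (ATHSP22.0 minus AT5G37670, exact adjusted p = 0.0436). It did not differ detectably from AT1G52560, at 0.05 ± 0.17 (AT1G52560 minus AT5G37670, exact adjusted p = 0.84). Organelle-type AT1G52560 and ATHSP22.0, not separated at the earlier steps, differed here by −0.81 ± 0.14 (AT1G52560 minus ATHSP22.0, exact adjusted p = 0.0436).

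AT4G21870 (254384_at) was the member without a called change. It read 7.45, 7.47, 7.31 and 7.66 at baseline, 7.29, 7.31, 7.32 and 7.21 at the optimum, 7.02, 6.88, 8.02 and 6.81 at 20% inhibition, and 7.77, 7.57, 7.32 and 7.69 at 30% inhibition. Of the 20% inhibition arrays, 3 lay below every baseline array and replicate 3 lay above them all. Its change against the baseline was −0.29 ± 0.19 at 20% inhibition (limma adjusted p = 0.24, 95% interval −0.70 to 0.11) and 0.11 ± 0.19 at 30% inhibition (adjusted p = 0.69).

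Calls of AT4G21870 differed between fits. Without 20% inhibition replicate 3 it was called lower at 20% inhibition than at baseline (−0.57, limma adjusted p = 1.21e-04) and than at the optimum (−0.38, adjusted p = 0.0048). In the same fit it was called higher at 30% than at 20% inhibition (0.69, adjusted p = 2.21e-04) and than at the optimum (0.30, adjusted p = 0.0122). With all 16 arrays weighted by quality it was called lower at 20% inhibition than at baseline (−0.49, adjusted p = 0.0061) and higher at 30% than at 20% inhibition (0.61, adjusted p = 0.0125). In a fit on the 8 arrays of 30% inhibition and the optimum it was called higher at 30% inhibition (adjusted p = 0.021). Replicate 3 was also the array with the low 25S rRNA control, 5.25. With that control as a covariate AT4G21870 changed by 0.32 at 20% inhibition against the baseline (adjusted p = 0.11) and by 0.67 at 30% inhibition (adjusted p = 0.0012). The change at 20% inhibition against the baseline was thus negative without the array and positive with the covariate. Within 20% inhibition that array lay apart from the others in both signals, so the parts of the array and of the control cannot be told apart. In these fits the changes of AT4G21870 stayed within 1 log2 unit, while with all 16 arrays and no covariate the 7 other genes rose by at least 6.61 at both inhibited states against the baseline.

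**Figure D3:**
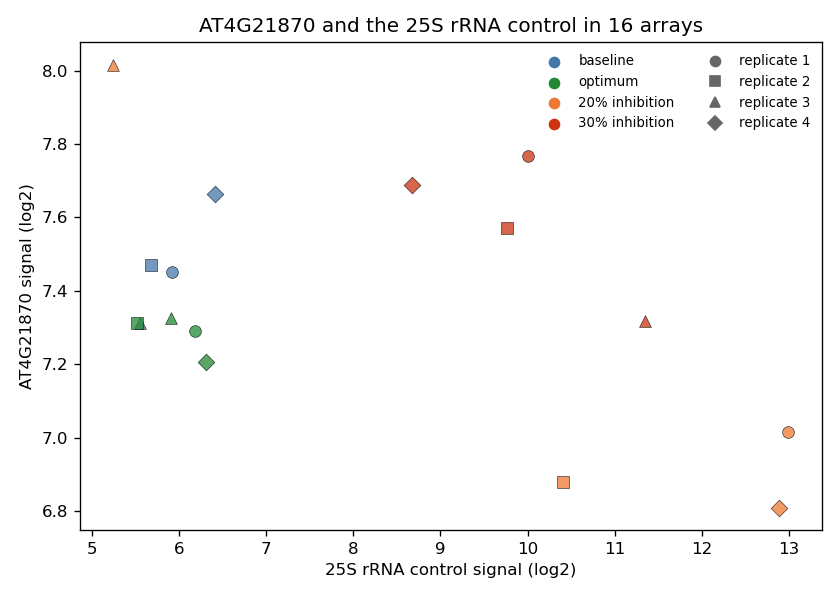
Signal of AT4G21870 (log2) against the signal of the 25S rRNA control (log2) in the 16 arrays, coloured by state with replicates as symbols. Replicate 3 of 20% inhibition, at 8.02 for AT4G21870 and 5.25 for the control, lies apart from the other 3 arrays of its state.

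The same array was the lowest of its state for most responding genes. At 20% inhibition replicate 3 held the lowest value of 5 members, AT1G53540, AT5G51440, AT1G52560, ATHSP22.0 and AT5G37670, and the highest value of AT4G21870. It lay 0.0016 above the state mean for AT2G29500 and 0.0245 above it for AT1G54050. Without it the rise against the baseline was 9.63 in place of 9.50 for AT1G53540 and 7.73 in place of 7.59 for AT1G52560, and the 7 calls stood (limma adjusted p at most 4.82e-15). At 30% inhibition replicate 3 instead held the highest value of 6 members. Whether same-numbered replicates of different states belong together was not settled, and the part of the array in these orders was not tested.

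At the optimum the 3 genes with the larger rises varied in the same order. AT2G29500, AT1G54050 and AT5G51440 were each lowest in replicate 1 and highest in replicate 3, and AT5G37670 was also highest in replicate 3 (6.90) but lowest in replicate 4 (6.34). Replicate 1 was 0.69 below the state mean for AT5G51440, 0.52 below it for AT1G54050 and 0.33 below it for AT2G29500. For AT1G53540 replicate 1 was 0.95 above the state mean, the opposite side. The spread of the early genes was smaller once photosynthesis was inhibited: the SD of AT2G29500 was 0.32 at the optimum, 0.03 at 20% and 0.04 at 30% inhibition, and that of AT1G54050 was 0.36, 0.05 and 0.10. Signals of both genes at the inhibited states lay near the upper end of the array range.

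**Figure D4:**
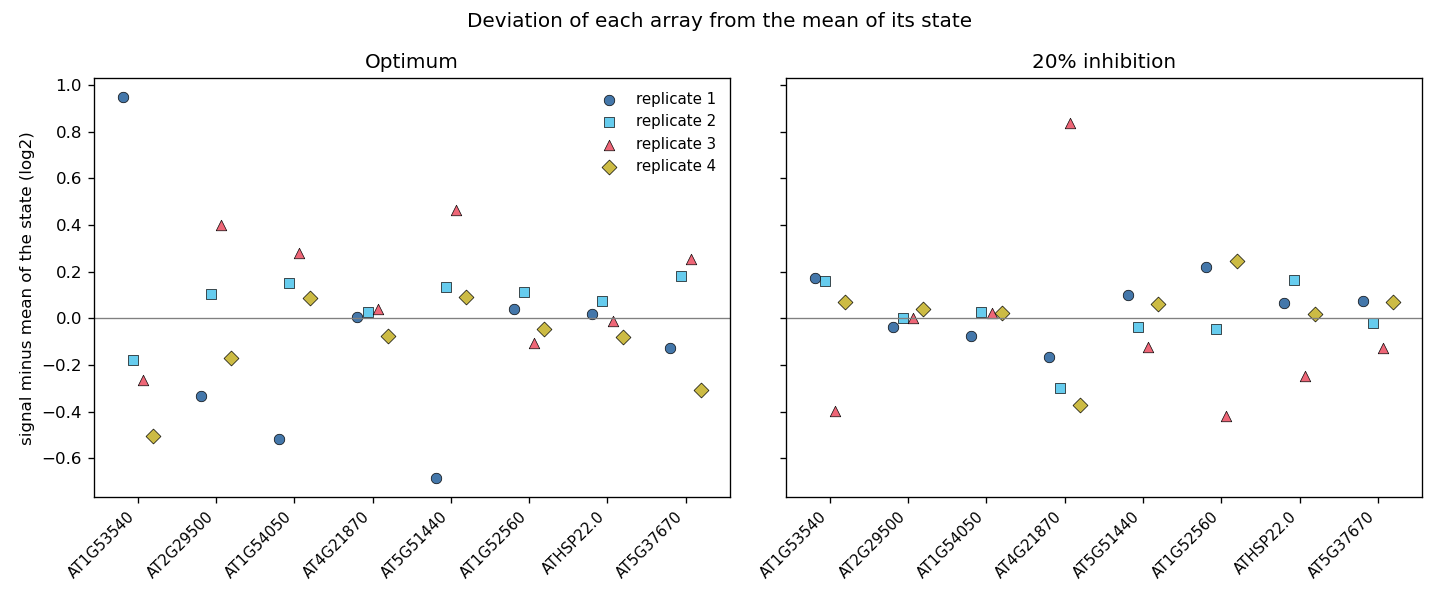
Deviation of each array from the mean of its state (log2 units) for the 8 genes at the optimum and at 20% inhibition, with colours and symbols for the replicates. Optimum replicate 1 lies 0.95 above the mean for AT1G53540 and 0.69 below it for AT5G51440, and 20% inhibition replicate 3 lies 0.84 above the mean for AT4G21870.

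The transcripts most like each gene were picked by their signals over the 16 arrays, so a shared timing is built into the choice. As a description, Pearson's r was taken with 13505 other probe sets of 1 gene; the arrays form clusters by state, so r mainly measures likeness of the 4 state means. Hop3, a co-chaperone that links HSP70 and HSP90, and AT5G12110 were the closest 2 for both AT5G51440 (r = 0.999 and 0.998) and AT2G29500 (r = 0.999 and 0.996). Next came AT1G30070 for AT5G51440 and TIL, a temperature-induced lipocalin, for AT2G29500 (r = 0.996 for both). For AT1G54050 they were SGT1A, an HSP90 co-chaperone (r = 0.997), the DnaJ-type co-chaperone AT2G20560 (r = 0.996) and Fes1A, a partner of cytosolic HSP70 (r = 0.995). HSA32, a heat stress protein needed for lasting thermotolerance, and AT1G72660 were among the closest 3 for AT1G53540, AT1G52560 and ATHSP22.0 alike, with r between 0.996 and 0.998. The remaining one of the 3 was AT4G21580 for AT1G53540 (r = 0.995), AT5G58110 for AT1G52560 (r = 0.994) and nad4L, a mitochondrial gene for a subunit of respiratory complex I, for ATHSP22.0 (r = 0.997). HSA32 changed by 0.33 at the optimum and 4.72 at 20% inhibition against the baseline, and AT1G72660 by 0.05 and 6.57. The closest 3 to AT5G37670 were AT4G09150, AT5G42220 and AT5G25450 (r = 0.995 to 0.997). The highest r for AT4G21870 was 0.867, with RALFL33, a gene for a secreted peptide, and AT5G14120 and AT2G47440 followed (r = 0.867 and 0.866).

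Further genes with an alpha-crystallin or small heat shock protein annotation moved unevenly. Of 18 other such loci 6 had a named probe set, and 1 rose and 1 fell at the optimum and at 20% inhibition against the baseline. At 30% inhibition 2 rose and 2 fell. Over all probe sets 8.14%, 18.9% and 19.3% were called higher in these comparisons, and the shares called lower are not given here. With 6 genes the counts are too small to be set apart from those shares. The median change of these 6 was −0.04 at 20% inhibition, against 7.77 for the 8 members and 0.005 for all probe sets. Most of the 18 loci were not measured by a named probe set, and the 8 members were chosen with earlier results known. These medians therefore do not describe the rest of the family. AT2G19310 followed the early pattern, with means of 8.45 ± 0.20 at baseline, 10.63 ± 0.27 at the optimum, 13.11 ± 0.16 at 20% and 12.92 ± 0.10 at 30% inhibition (SD, n = 4). It rose by 2.18 ± 0.12 at the optimum and stood 4.66 ± 0.12 above the baseline at 20% inhibition. AT5G54660 fell by 0.56 ± 0.16 at the optimum (limma adjusted p = 0.022) and by 0.84 ± 0.16 at 30% inhibition against the baseline (adjusted p = 3.0e-04). AT1G54850 and AT2G27140 changed by 0.19 and −0.22 at 20% inhibition and were not called there.

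Of 36 listed refolding partners, taken from HSP100, HSP70, HSP90 and HSP60 chaperones with their helpers, 8 had a named probe set. These were the HSP70 genes Hsp70-2 and AT3G09440, and AT5G48570, ATERDJ3B, HSA32, Hop3, Fes1A and AT2G20560. No HSP100, HSP90 or HSP60 gene was among them. All 8 rose against the baseline in the 3 warmer states, where 8.14%, 18.9% and 19.3% of all probe sets were called higher. Their median change was 2.44 at the optimum and 5.72 at 20% inhibition, against 0.98 and 7.77 for the 8 small heat shock protein genes. The 4 with the largest rises at 20% inhibition were AT5G48570, an FKBP-type prolyl isomerase (8.68 ± 0.16), Hop3 (8.40 ± 0.19), AT2G20560 (7.64 ± 0.12) and Fes1A (6.73 ± 0.14). From 20% to 30% inhibition 3 of these 8 fell, where 2.97% of all probe sets were called lower. The falls of AT2G20560, Fes1A and the HSP70 gene AT3G09440 were 0.69 ± 0.12, 0.58 ± 0.14 and 0.37 ± 0.09. None of the 23 listed heat shock factors and cofactors had a named probe set, so their transcripts were not analysed here.

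The members are spread over the genome rather than clustered. In the RefSeq annotation of assembly TAIR10.1, AT1G52560, AT1G53540 and AT1G54050 lie on chromosome 1 with 108 and 62 protein-coding genes between neighbours, and the others lie on chromosomes 2, 4 and 5. Of 16 flanking protein-coding genes 7 had a named probe set. Their changes against the baseline ran from −0.35 to 0.79 at 20% inhibition, and the highest of them was AT1G53530 beside AT1G53540, which itself rose by 9.50. Class I genes are close in sequence to other family members, and whether transcripts of other loci add to the signal of a member's probe set was not tested.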

How the data were processed

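Total RNA from leaves was labelled with biotin and hybridised to 16 Affymetrix arrays, 1 per sample. The deposited values are log2 signals per probe set that the authors made with RMA, per the submitters' processing notes, which also name limma. RMA corrects background, equalises array distributions by quantiles and summarises probes. Their versions are not stated in these notes. Array medians lay between 6.07 and 6.19, and no filter or pseudocount was applied. Genes were named from the array's probe annotation, which gave 13513 probe sets 1 gene, 503 several and 8730 none, and from RefSeq (TAIR10.1), by which all 8 members matched.

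Of 22810 probe sets 64 controls were left out. One limma 3.58.1 model (R 4.3.3) with 4 state means was fitted to all 16 arrays (12 residual and 4.21 prior degrees of freedom), with 6 comparisons adjusted over 22746 probe sets. In simulated data for the optimum against the baseline, with 22746 probe sets, it recovered 95% of log2 changes of 1 and 100% of changes of 2. Members and lists were chosen with earlier results of these data known. Named are all members, the 3 most similar probe sets of each, and up to 4 genes of each list by size of change at 20% inhibition. The measured refolding partners beyond those 4, AT1G53530 and the mesophyll markers were named after their values were seen. Alternatives covered the prior, the arrays fitted, dim probe sets, scaling, weights, a replicate block, the 25S covariate, stricter calls and each array left out. Whether replicate numbers pair the arrays was not settled. Over 24 same-numbered pairs, deviations correlated between −0.36 and 0.31, with 5 over 0.1, and different-numbered pairs were not set beside them. No 2 arrays held identical values. The labels do not say that replicates are separate plants for each array, so the p-values reflect only how far these samples vary, which may be technical. The number of arrays limits the precision.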

Additional observations from a re-analysis of the deposited data

Results flagged for a closer look

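In 3 of 32 sets of 4 arrays, 1 array lay far from the other 3 relative to the width of the set by Dixon's test, which flags about 1 set in 20 by chance. AT2G29500 at 30% inhibition read 13.93 in replicate 4, with the nearest other array at 14.02. AT1G54050 at 20% inhibition read 13.69 in replicate 1, with the nearest at 13.79. AT1G54050 at 30% inhibition read 13.67 in replicate 3, with the nearest at 13.49. All 3 gaps are under 0.2 log2 units. The wider gap of AT4G21870 in 20% inhibition replicate 3 did not pass this test.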

How the results depend on the processing

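The 4 rises at the optimum and the 7 at each inhibited state against the baseline were called, in the same direction, under every alternative fit. The number of members called stayed within 4 to 5 at the optimum and within 7 to 8 at the inhibited states, over 27 alternatives each. Between 20% and 30% inhibition 2 were called, but 1 in the 8 arrays alone or at an adjusted p under 0.01, 0 with a 2-fold minimum, and 1 to 3 when 1 array was left out. With the replicate block the counts were 4, 7, 7 and 2, and no call of a member changed. Directions that turned concerned changes that were not called: AT1G52560 at the optimum (−0.0021 with array weights, −0.0206 to 0.0706 when 1 array was left out), AT5G51440 between the inhibited states (0.0206 after a repeated quantile normalisation) and the difference of AT1G54050 and AT5G51440 at the optimum (0.0048 after that normalisation). AT4G21870 at 20% inhibition turned with the 25S covariate, to 0.32 against the baseline and to 0.50 against the optimum (limma adjusted p = 0.016), and its change against the optimum spanned −0.38 to 0.0201 when 1 array was left out. The cause was not tested. Among differences between 2 members, called ones lost their call in 44 fits without 1 array and kept it in 396, all with the same sign and the states still separate, and others gained one in 7. The number of unequal pairs then ran from 15 to 19, 21 to 26 and 9 to 10 at the 3 steps. Differences not called that turned when 1 array was left out were AT1G54050 minus AT5G51440 (−0.0748 to 0.0656) and AT4G21870 minus ATHSP22.0 (−0.17 to 0.0379) at the first step, AT2G29500 minus AT5G51440 (−0.0645 to 0.14) and AT1G52560 minus ATHSP22.0 (−0.0151 to 0.13) at the second, and AT1G53540 minus AT4G21870 (−0.56 to 0.0082) and AT1G52560 minus AT5G37670 (−0.0705 to 0.13) at the third. Centring arrays on their medians moved the median of all probe sets by at most 0.07. Signals near both ends of the array range limit the sizes of the largest rises.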
